A study of Mus musculus with 30 samples.

Results

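The receptors for follicle-stimulating hormone (Fshr), luteinizing hormone (Lhcgr) and prolactin (Prlr) were followed through 30 mouse ovaries. The 3 genes are named by a rule that uses no measured value, among the 50600 genes of the deposited table, and each matched 1 row. Both ovaries of 15 female C57BL/6 mice were sequenced separately. Of these, 7 mice had been given 3% dextran sulfate sodium (DSS), a polysaccharide that injures the colon lining, in the drinking water for 7 days while sexually immature, and 8 were littermate controls. Ovaries were collected after sexual maturity. The ages and the stage of the estrous cycle at collection are not given in the labels, and no transgene or deletion is named for either group. The design asks whether an early bout of DSS is followed by a change in the mature ovary. RNA was sequenced by CEL-Seq, which tags the 3′ ends of polyadenylated transcripts.

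Fshr and Lhcgr are G protein-coupled receptors with a large extracellular domain, and both raise cyclic AMP. In the ovary Fshr is known from granulosa cells of growing follicles, where it drives follicle growth and estrogen synthesis, and Lhcgr from theca cells, granulosa cells of preovulatory follicles and luteal cells, where it triggers ovulation and drives steroid synthesis. Prlr is a cytokine receptor that signals through Jak2 and Stat5, and in rodents prolactin maintains the corpus luteum, the progesterone-secreting body that forms after ovulation.

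Fshr (ENSMUSG00000032937.4) lay at chr17:88984870-89200612 on the minus strand, with Lhcgr (ENSMUSG00000024107.6) on the same strand at chr17:88741249-88791976. Prlr (ENSMUSG00000005268.20) lay at chr15:10177238-10349480 on the plus strand. These are the deposited coordinates on GRCm38. Because Lhcgr and Prlr moved together across ovaries and no such relation passed for Fshr, the 250 bases before each annotated start are shown, from the RefSeq promoter table on GRCm38.p6, in which all 3 genes matched. Capitals mark the motifs searched on both strands: CACGTG (the E-box that upstream stimulatory factors bind), TCAAGG (a site of the orphan receptors Nr5a1 and Nr5a2), GGGCGG (a GC box) and CCAAT. No motif searched contains another.
Fshr, chr17:89200676-89200925, minus strand: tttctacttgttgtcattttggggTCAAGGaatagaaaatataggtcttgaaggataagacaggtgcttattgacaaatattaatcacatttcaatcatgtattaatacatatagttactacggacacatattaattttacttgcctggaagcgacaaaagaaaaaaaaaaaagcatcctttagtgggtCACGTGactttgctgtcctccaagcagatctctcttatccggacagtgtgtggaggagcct
Lhcgr, chr17:88792015-88792264, minus strand: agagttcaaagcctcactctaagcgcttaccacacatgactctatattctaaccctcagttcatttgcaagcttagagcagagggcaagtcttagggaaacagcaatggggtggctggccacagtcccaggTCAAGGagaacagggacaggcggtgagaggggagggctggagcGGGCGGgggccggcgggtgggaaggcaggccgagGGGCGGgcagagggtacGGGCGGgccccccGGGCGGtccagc
Prlr, first start, chr15:10176988-10177237, plus strand: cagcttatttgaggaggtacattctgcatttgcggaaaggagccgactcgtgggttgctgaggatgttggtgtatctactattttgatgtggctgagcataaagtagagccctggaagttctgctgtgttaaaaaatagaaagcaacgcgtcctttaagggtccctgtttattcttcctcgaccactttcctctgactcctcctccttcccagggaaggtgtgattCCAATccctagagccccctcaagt

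The Fshr window held 1 CACGTG, 61 bases before the start, and 1 TCAAGG, 226 bases before it, and its GC content was 36.8%. The Lhcgr window held 1 TCAAGG, 119 bases before the start, and 4 GGGCGG, at 76, 42, 25 and 12 bases, and its GC content was 63.2%. The first Prlr window held 1 CCAAT, 24 bases before the start, at a GC content of 48%. Lhcgr and Prlr shared none of the 4 motifs in these windows. Over the same 250 bases of 32851 RefSeq promoters, CACGTG was present in 6.02%, TCAAGG in 12.5%, GGGCGG in 32.7% and CCAAT in 33.8%, and the median GC content was 52.4%. Prlr has further annotated starts, and the windows before 2 of them, at 44.8% and 32.8% GC, held none of the motifs. A match describes these letters only.

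The libraries held between 3095386 and 8564770 reads, recovered from the normalized values, with a median of 4305814.5. All 6 granulosa markers and all 7 oocyte markers were above 0 in every library, as were 4 of the 5 theca and interstitial markers, while Insl3, a hormone of theca cells and a defining marker of that list, was at 0 in all 30. A count of 0 among 135065325 reads allows a true level of up to 3 reads at that depth, for counting error only. Ovgp1, the oviductal glycoprotein, exceeded 5000 in 7 ovaries of 6 mice, of which 3 were left ovaries of DSS mice, 1 a right ovary of a DSS mouse, 3 right ovaries of controls and 0 left ovaries of controls. The 6 oviduct markers together ran from 117.5 to 67380. In bulk tissue, fewer cells of a type and less RNA per cell cannot be told apart. The labels name 15 separate mice, so the mouse was the replicate.

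Levels are normalized read counts per ovary, and mean ± SD is over ovaries of a group or over mice. Read counts of different genes were not compared as transcript numbers. The 3′ ends bear on this: the coding transcript of Lhcgr in the GENCODE M21 annotation ends 3975 bases beyond the deposited gene end, and tags there would lie outside the deposited interval. Prlr has 7 coding transcripts with 7 distinct 3′ ends in that annotation, which the deposited values do not separate. Prlr also overlaps Gm21973 on the same strand, and Gm21973 was at 0 in all 30 libraries. The overlap includes the 3′ end of Prlr, and this 0 does not show whether reads there were counted for Prlr.

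Fshr was the least abundant in reads, with 750 over all libraries, between 8 and 60 in each. In the left ovaries of controls it ran from 19.9 to 40.3 with a median of 27.4 (28.3 ± 7.93, SD, n = 8), and in their right ovaries from 14.9 to 41.3 with a median of 19.9 (22.7 ± 8.93, SD, n = 8). In the left ovaries of DSS mice it ran from 8.53 to 32.3 with a median of 18.5 (20.02 ± 9.17, SD, n = 7), and in their right ovaries from 12.5 to 32.6 with a median of 24.8 (25.5 ± 6.79, SD, n = 7). All 4 groups overlapped, and in the order control left, DSS right, control right, DSS left no neighbours differed by more than their SD. The lowest and the highest ovary were the left ovary of mouse DSS_11.2 and the right ovary of control_15.4. For the lowest, 8 reads give a 95% exact Poisson interval of 3.68 to 16.8 normalized counts, which covers counting error only.

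Lhcgr was read about as deeply as Prlr, with 56636 and 59592 reads. In the left ovaries of controls Lhcgr ran from 371 to 2596 with a median of 1804 (1734 ± 734, SD, n = 8), and in their right ovaries from 421 to 2424 with a median of 2070 (1766 ± 723, SD, n = 8). In the left ovaries of DSS mice it ran from 142 to 2698 with a median of 2123 (1912 ± 825, SD, n = 7), and in their right ovaries from 1164 to 2224 with a median of 2006 (1891 ± 363, SD, n = 7). The 4 groups overlapped throughout, and their order (DSS left, DSS right, control right, control left) separated no neighbours beyond their SD. Among the 30 ovaries, 3 stood far below the others: the left ovary of mouse DSS_11.2 at 142 and the left and right ovary of control_15.3 at 371 and 421. The next lowest ovary had 992.

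Prlr ran from 776 to 2288 with a median of 1782 in the left ovaries of controls (1729 ± 485, SD, n = 8), and from 1016 to 2949 with a median of 2072 in their right ovaries (2010 ± 629, SD, n = 8). In the left ovaries of DSS mice it ran from 465 to 2321 with a median of 1955 (1784 ± 618, SD, n = 7), and in their right ovaries from 1638 to 2581 with a median of 2259 (2161 ± 376, SD, n = 7). The groups overlapped here too, in the order DSS right, control right, DSS left, control left, with no neighbours apart beyond their SD. The lowest ovaries were the same 3, at 465 in the left ovary of DSS_11.2 and at 776 and 1016 in the left and right ovary of control_15.3, and the next lowest had 1283.

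**Figure D1:**
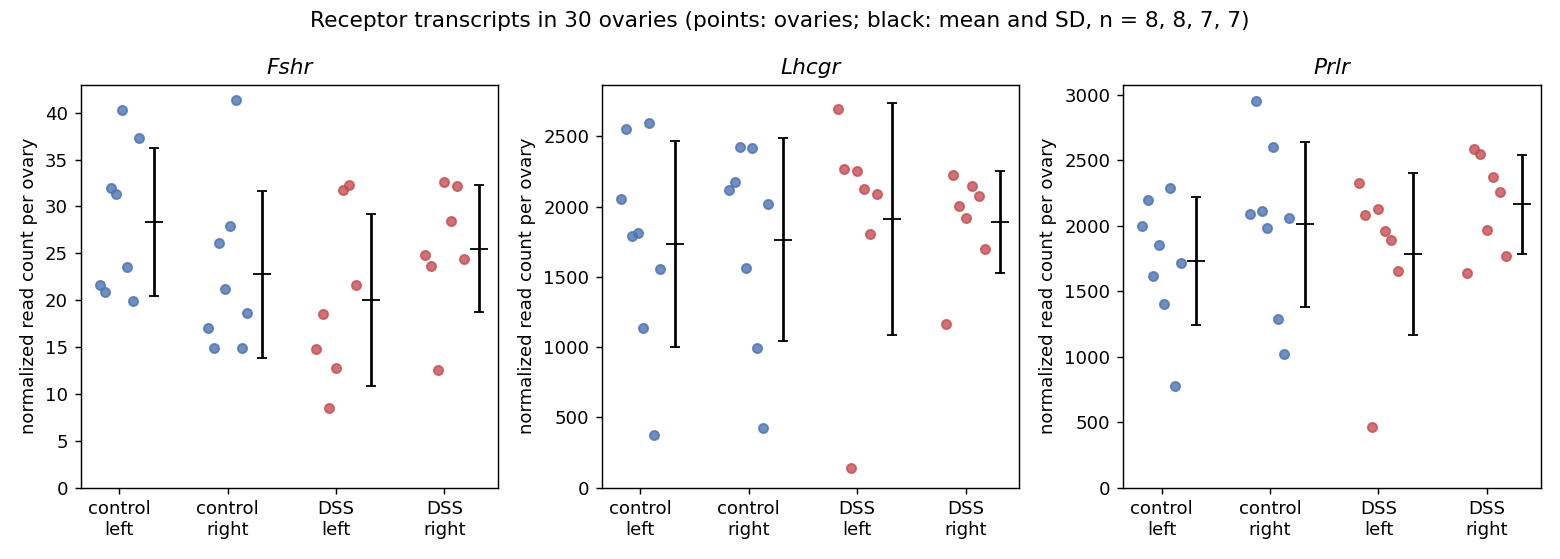
Normalized read counts of Fshr, Lhcgr and Prlr (vertical axes, linear from 0) in the left and right ovaries of 8 control and 7 DSS mice. Points are ovaries and black bars are mean and SD. The groups overlap for each receptor, and 3 ovaries lie apart at the bottom of the Lhcgr panel, at 142, 371 and 421.

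For DSS against control, the ovaries of each mouse were averaged and tested with limma on log2(normalized read count + 1) over 14646 genes. None of the receptors passed an adjusted p of 0.05 (0 of 3), beside 0% of all genes tested, and 0 of 3 had an unadjusted p under 0.05. Over all genes limma called 0, with 1169 at an unadjusted p under 0.05, while edgeR called 6 and DESeq2 52, none of them a receptor.

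Fshr averaged 22.8 ± 7.12 (SD, n = 7) in DSS mice, with 10.52, 22.7 and 32.2 as the lowest, median and highest, and 25.5 ± 6.58 (SD, n = 8) in controls, with 17.4, 27.1 and 34.1. The log2 difference was -0.18, with a 95% interval from -0.62 to 0.25 (limma adjusted p = 0.845, exact permutation p = 0.442 over 6435 splits), or 0.651 to 1.19 as a ratio. Of the 7 DSS mice, 2 lay above the control median, and the difference was smaller than the spread between mice. It rested on 1 mouse: without DSS_11.2 it was -0.022.

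Lhcgr averaged 1901 ± 386 (SD, n = 7) in DSS mice, with 1074, 1938 and 2246 as the lowest, median and highest, and 1750 ± 593 (SD, n = 8) in controls, with 396, 1791 and 2364. The log2 difference was 0.23, with a 95% interval from -0.38 to 0.84 (limma adjusted p = 0.863, exact permutation p = 0.635), or 0.769 to 1.79 as a ratio. In 6 of 7 DSS mice Lhcgr lay above the control median. Its direction turned on 1 control: without control_15.3 the log2 difference was -0.056.

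Prlr averaged 1972 ± 279 (SD, n = 7) in DSS mice, with 1506, 2046 and 2330 as the lowest, median and highest, and 1870 ± 463 (SD, n = 8) in controls, with 896, 1899 and 2574. The log2 difference was 0.11, with a 95% interval from -0.22 to 0.45 (limma adjusted p = 0.880, exact permutation p = 0.646), or 0.858 to 1.37 as a ratio. In 5 of 7 DSS mice Prlr lay above the control median, and without control_15.3 the log2 difference was -0.030.

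Left and right ovaries were compared within the mouse. None of the receptors passed (0 of 3, and 0 of 3 at an unadjusted p under 0.05). With the mouse as a block, limma called 10.2% of the 14646 genes, 668 higher in the left and 820 higher in the right ovary. Among these 14646, 3464 had an unadjusted limma p under 0.05. Neither edgeR nor DESeq2 called a receptor. Prlr came nearest: its mean was 1755 ± 531 (SD, n = 15) in left and 2081 ± 514 (SD, n = 15) in right ovaries, and it was higher on the left in 3 of 15 mice. The log2 difference of Prlr, left minus right, was -0.30 with a 95% interval from -0.62 to 0.03 (limma unadjusted p = 0.0700, adjusted p = 0.257, exact sign-flip permutation p = 0.112 over 32768 flips). Without mouse DSS_11.2 it was -0.14.

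Lhcgr was higher on the left in 7 of 15 mice, at a log2 difference of -0.17 with a 95% interval from -0.69 to 0.35 (limma adjusted p = 0.741, exact permutation p = 0.693). Without mouse DSS_11.2 the difference was 0.09. Fshr was higher on the left in 9 of 15 mice, at a log2 difference of -0.01 with a 95% interval from -0.33 to 0.30 (limma adjusted p = 0.979, exact permutation p = 0.950).

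The side difference was then compared between treatments. None of the receptors passed after adjustment, beside 0% of all genes tested. At an unadjusted p under 0.05 the limma fit held 1 of 3 receptors and 1098 of the 14646 genes tested. The receptor was Fshr: the left ovary was higher in 7 of 8 controls and in 2 of 7 DSS mice, with mean left minus right log2 differences of 0.34 ± 0.50 (SD, n = 8) and -0.41 ± 0.49 (SD, n = 7). The difference between treatments was -0.74 on the log2 scale, with a 95% interval from -1.26 to -0.23 (limma unadjusted p = 0.00755, adjusted p = 0.637, exact permutation p = 0.0123), so it failed the correction over all genes. Leaving out each mouse gave -0.90 to -0.60. Within the left ovaries alone, the log2 difference of Fshr between DSS and control was -0.56 (exact permutation p = 0.0597), and within the right ovaries 0.18 (exact permutation p = 0.457).

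By group medians, granulosa markers had the same order as Fshr. Oviduct markers rose in the order control left, DSS right, DSS left, control right, which is not the full reverse. They were highest in control right ovaries, while Fshr was lowest in DSS left ovaries. In the 7 ovaries over 5000 of Ovgp1 Fshr ran from 8.53 to 32.6 with a median of 17.0, and in the other 23 from 12.5 to 41.3 with a median of 24.8. The summed oviduct markers had medians of 1651 in DSS left, 664 in DSS right, 246 in control left and 1979 in control right ovaries, with ranges from 331 to 67380, from 117.5 to 10656, from 126 to 486 and from 145 to 42283. Of the 6 oviduct markers, up to 3 were at 0 in an ovary, and Ovgp1 itself in none.
The 6 granulosa markers, summed, had medians of 12927, 13770, 16160 and 13306 in the same order of groups, most of it from Inha, and none was at 0. Leaving out the ovaries over 5000 of Ovgp1, which keeps 4 DSS and 5 control mice with both ovaries, the difference was -0.26, so over 1.5 times smaller. The part of these tissues in the Fshr difference was not tested. For Lhcgr and Prlr, the DSS effect on left minus right was -0.29, with a 95% interval from -1.51 to 0.94, and -0.19, with a 95% interval from -0.95 to 0.58 (limma adjusted p = 0.927 and 0.923), and it was 0.30 and 0.16 without mouse DSS_11.2.

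**Figure D2:**
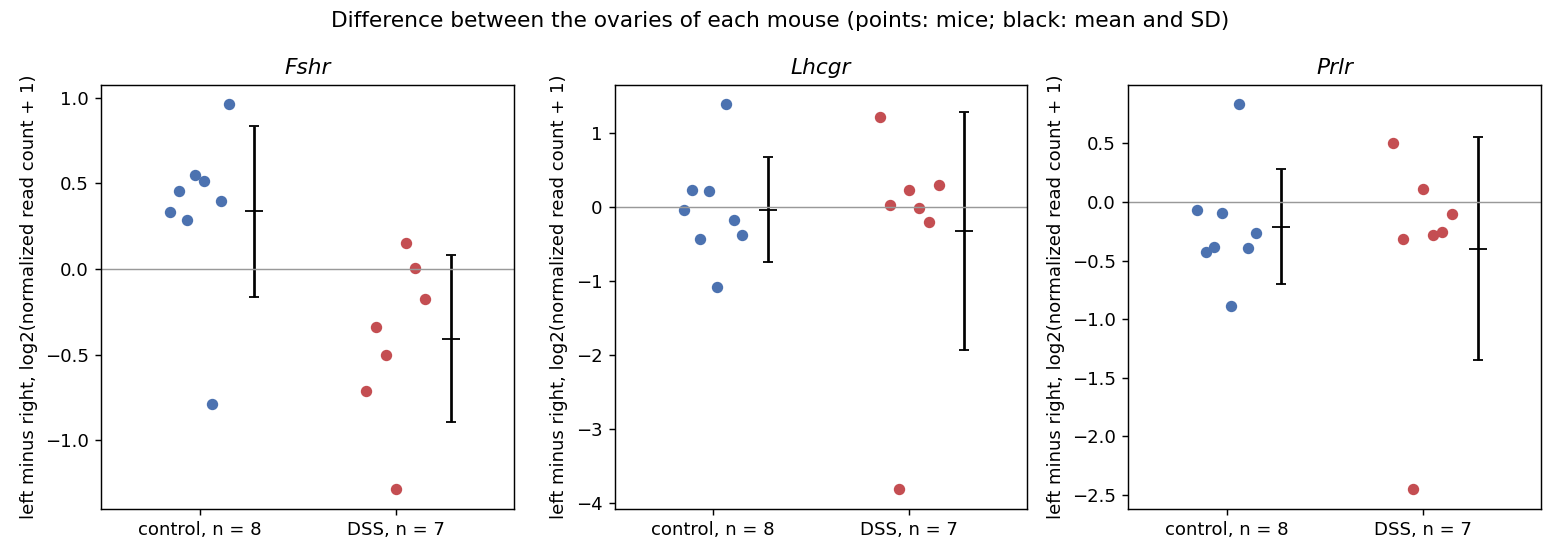
Left minus right difference on the log2(normalized read count + 1) scale for each mouse, with mean and SD in black, for 8 controls and 7 DSS mice. For Fshr 7 of 8 controls lie above 0 and 5 of 7 DSS mice below it, and the lowest Lhcgr and Prlr points both belong to mouse DSS_11.2.

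**Figure D3:**
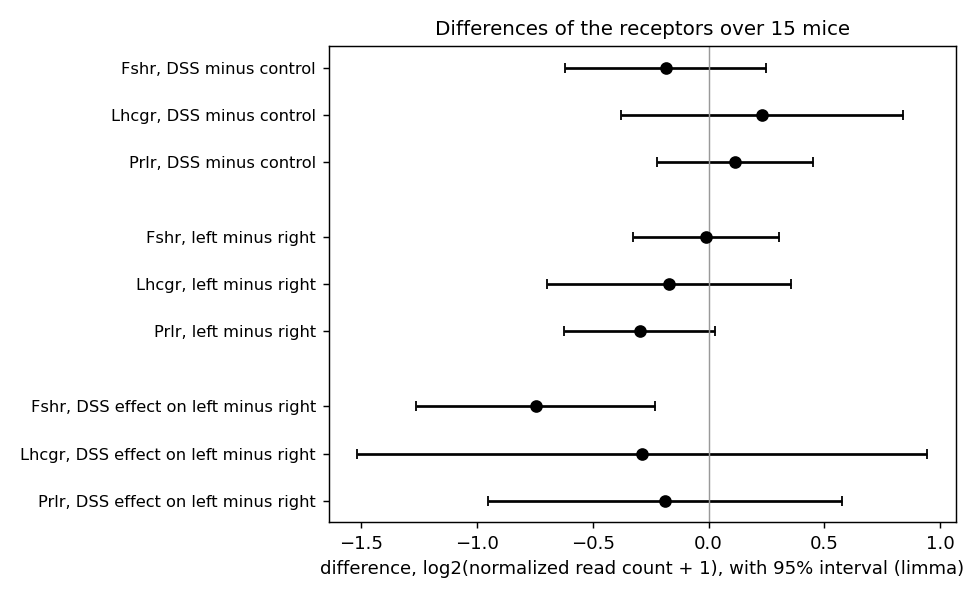
Differences of each receptor on the log2(normalized read count + 1) scale (horizontal axis) with 95% limma intervals over 15 mice, for DSS against control, left against right, and the DSS effect on left minus right. The interval of Fshr in the last comparison, from -1.26 to -0.23, lies off 0 before adjustment, and the other 8 include 0.

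The mouse-to-mouse spread of the receptors was large beside that of most genes. The SD of the log2 level over 15 mice was 0.43 for Fshr, 0.64 for Lhcgr and 0.35 for Prlr, against a median of 0.22 over 14646 genes, and exceeded that of 84.5%, 94.4% and 74.8% of them. The SD within mice on the log2 scale was 0.42 for Fshr, 0.81 for Lhcgr and 0.53 for Prlr, and that between mice 0.32, 0.52 and 0.15. For Lhcgr the order of these SDs rested on 1 library: without the left ovary of DSS_11.2 they were 0.43 within and 0.55 between mice, and those of Prlr were 0.30 and 0.27. Counting error alone gives a coefficient of variation of 20.9% at the median of 23 reads for Fshr, against 34.8% observed over ovaries, and 2.26% and 2.27% for Lhcgr and Prlr, against 36.0% and 28.1%. Without mice DSS_11.2 and control_15.3 the SD within mice fell to 0.45 for Lhcgr and 0.30 for Prlr, and no spread between mice remained for these genes beyond that within mice. For Fshr, the SD between mice fell to 0.09 without them, beside 0.43 within mice.

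The largest gap between the ovaries of a mouse was 3.81 for Lhcgr and 2.45 for Prlr on the log2 scale, both in DSS_11.2, and 1.28 for Fshr, in DSS_11.1. The median gap was 0.23 for Lhcgr, 0.31 for Prlr and 0.45 for Fshr. Over the mice, the left level went with the right level at r = 0.34 for Fshr, 0.28 for Lhcgr and 0.10 for Prlr (rho = 0.33, -0.12 and -0.12, permutation adjusted p = 0.284, 0.284 and 0.722 over 18 relations). Without the 2 mice farthest from the median, r was -0.01, -0.54 and -0.29. None of these 3 relations passed.

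Lhcgr and Prlr rose and fell together. Over 15 mice Pearson's r of their log2 levels was 0.95 (permutation p = 2e-05, adjusted p = 0.00036 over 18 relations) and Spearman's rho 0.79 (p = 0.00081, adjusted p = 0.0146). Without the 2 mice farthest from the median of Lhcgr, control_15.3 and DSS_11.2, r was 0.74 and rho 0.67. Within DSS mice r was 0.88 and within controls 0.96. In left ovaries alone r was 0.99, in right ovaries 0.91, and without the ovaries over 5000 of Ovgp1 0.92. The differences within the animal were also related: over the 15 left minus right differences, a measure added after the levels had been seen, r was 0.98 and rho 0.70 (permutation adjusted p = 3.75e-05 over the relations computed that way). Mouse DSS_11.2 was far from the others on this measure, and without it and control_15.4, the 2 farthest from the median difference of Lhcgr, r was 0.89 and rho 0.53. Without the left ovary of DSS_11.2, r of the levels was 0.92 (permutation adjusted p = 0.00645).

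The ratio of the counts changed in the low ovaries. Lhcgr over Prlr was between 0.711 and 1.27 in 27 ovaries, and 0.305, 0.479 and 0.414 in the left ovary of DSS_11.2 and the left and right ovary of control_15.3, so Lhcgr lay further down than Prlr where both were low. The ratio was higher on the left in 11 of 15 mice, with medians of 1.09 in DSS left, 0.906 in DSS right, 1.004 in control left and 0.859 in control right ovaries. This was noticed among the values and has no test.

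No relation of Fshr with the other receptors passed. Its r with Lhcgr was 0.41 (rho = 0.04, permutation adjusted p = 0.186) and with Prlr 0.32 (rho = 0.13, permutation adjusted p = 0.284). Without the 2 mice farthest from the median of Fshr, r was 0.33 and 0.20. Whether these correlations differ from that of Lhcgr with Prlr was not tested. On the left minus right differences, r was -0.13 with Lhcgr and -0.18 with Prlr. Without the low mice DSS_11.2 and control_15.3, in left ovaries, r was -0.77 with Lhcgr and -0.72 with Prlr (rho = -0.82 and -0.73). In right ovaries without these mice, r was -0.38 and -0.51 (rho = -0.20 and -0.29). These subsets were chosen after the values were seen and not tested. The ovaries with the highest Fshr, the right of control_15.4 at 41.3 and the left of control_13.5 at 40.3, had the 2 lowest Lhcgr levels outside the 3 low ovaries, at 992 and 1137.

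**Figure D4:**
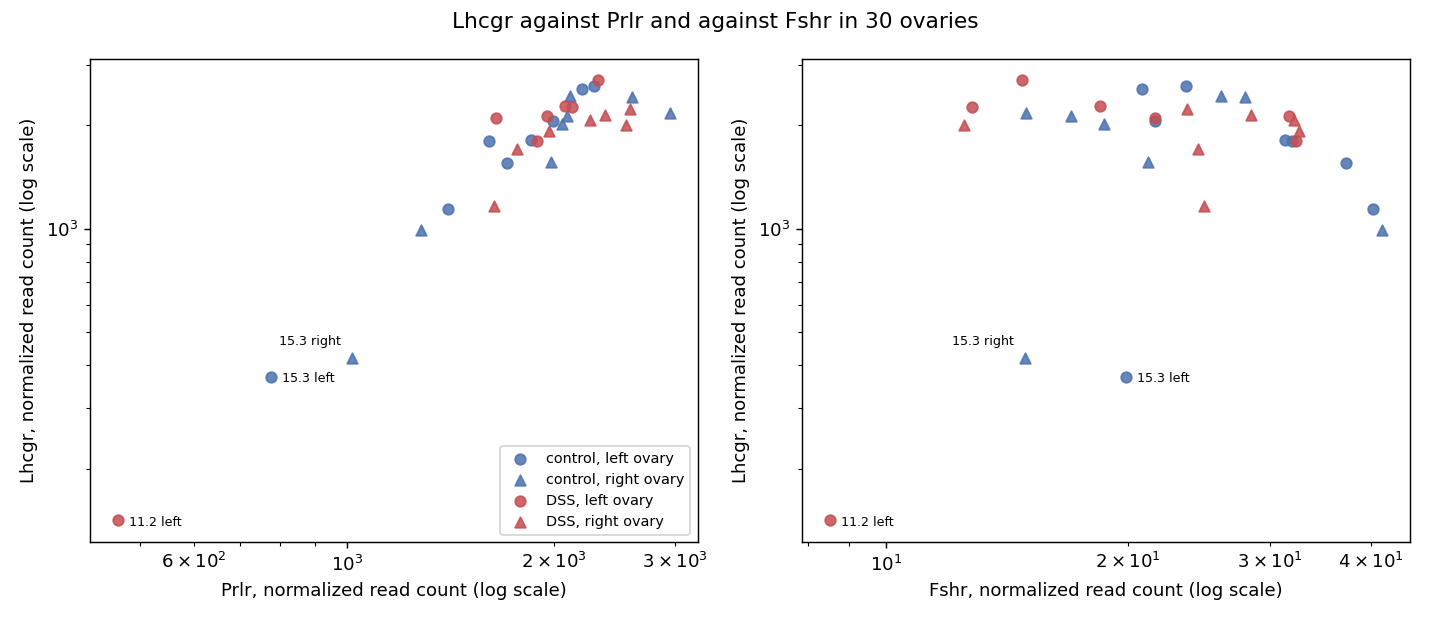
Lhcgr against Prlr (left panel) and against Fshr (right panel) in 30 ovaries, as normalized read counts on log scales; circles are left and triangles right ovaries, red DSS and blue control. The ovaries of Lhcgr and Prlr lie along a line down to the left ovary of DSS_11.2, at 142 and 465, and the right panel shows no such line.

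Genes that respond to each hormone were set beside its receptor. Cyp17a1, the enzyme of androgen synthesis in theca cells, went with Lhcgr at r = 0.92 (rho = 0.34, permutation p = 0.00274, adjusted p = 0.0123), and Cyp11a1, which makes pregnenolone from cholesterol, at r = 0.79 (rho = 0.49, permutation adjusted p = 0.0149). Star, which moves cholesterol into mitochondria, went with Lhcgr at r = 0.62 (rho = 0.50, permutation adjusted p = 0.0485). Over these means of both ovaries the relations depended on 2 mice: without control_15.3 and DSS_11.2, r was -0.06 for Cyp17a1, 0.27 for Cyp11a1 and 0.39 for Star, and over all 15 mice none of the 3 rho values passed after adjustment.

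Ovary by ovary, Star stayed with Lhcgr when those mice were left out, with p adjusted over the 15 relations of each side or of the differences. The rho of Lhcgr with Star was 0.84 in left ovaries, 0.70 in right ovaries and 0.78 on left minus right differences (r = 0.83, 0.72 and 0.96, permutation adjusted p = 0.00383, 0.00618 and 3.75e-05), and without DSS_11.2 and control_15.3 it was 0.76, 0.76 and 0.81. Lhcgr with Cyp11a1 had r = 0.89 and rho = 0.78 in right ovaries (permutation adjusted p = 7.5e-05), at r = 0.83 without both mice. In left ovaries the same pair had r = 0.89 and rho = 0.21 (permutation adjusted p = 0.00711), at r = -0.19 without them. Cyp17a1 had r = 0.85 in left and 0.53 in right ovaries (permutation adjusted p = 0.0124 and 0.132), and 0.04 and -0.67 without both mice.

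Prlr went with Hsd17b7, known from the corpus luteum for estradiol synthesis and as a prolactin receptor associated protein, at r = 0.91 (rho = 0.31, permutation p = 0.00105, adjusted p = 0.00945), and with Star at r = 0.62 (rho = 0.41, permutation adjusted p = 0.0469). Over the means of both ovaries r was 0.22 and 0.32 without the same mice. Without the left ovary of DSS_11.2 alone, Hsd17b7 kept r = 0.86 but rho was 0.05 (permutation adjusted p = 0.0851). Ovary by ovary both genes stayed with Prlr. Hsd17b7 had rho = 0.74 in left and 0.77 in right ovaries (r = 0.97 and 0.87, permutation adjusted p = 0.00015 and 0.0003), and r = 0.70 and 0.86 without both mice. Star had rho = 0.80 in left and 0.81 in right ovaries (r = 0.83 and 0.80, permutation adjusted p = 0.00333 and 0.00124), and r = 0.59 and 0.68 without them. On left minus right differences r of Prlr was 0.99 with Hsd17b7 and 0.97 with Star (rho = 0.83 and 0.73, permutation adjusted p = 3.75e-05 for each), and 0.97 and 0.96 without both mice. Akr1c18, which inactivates progesterone and which prolactin is known to hold down, had r = 0.34 with Prlr (rho = 0.55, permutation adjusted p = 0.284), and r = 0.44 without the 2 farthest mice. In left ovaries this pair had r = 0.47 and rho = 0.76 (permutation adjusted p = 0.101), and in right ovaries r = -0.05 and rho = -0.175 (permutation adjusted p = 0.847). Without both mice r was 0.66 on the left and -0.23 on the right. On left minus right differences r was 0.22 (rho = -0.03, permutation adjusted p = 0.580). Of the 18 relations, the rho of Lhcgr with Prlr alone passed after adjustment, and the next smallest adjusted p of a rho was 0.243.

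Fshr went with Inha, the inhibin alpha chain of granulosa cells, at r = 0.78 (rho = 0.52, permutation p = 0.00262, adjusted p = 0.0123), which fell to r = 0.42 without DSS_11.2 and control_13.5. Cyp19a1, the aromatase that Fshr signalling induces, had r = 0.45 (rho = 0.16, permutation adjusted p = 0.184), and Amh, a hormone of small growing follicles, r = 0.29 (rho = 0.34, permutation adjusted p = 0.348). Ovgp1 had r = -0.45 with Fshr, 0.18 with Lhcgr and 0.18 with Prlr (rho = -0.42, 0.07 and 0.14, permutation adjusted p = 0.184, 0.657 and 0.657).

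Within a side or within the mouse, some of these relations of Fshr passed. In left ovaries Fshr with Ovgp1 had r = -0.79 (rho = -0.47, permutation adjusted p = 0.00296), and r was -0.71 without DSS_11.2 and control_13.5, the 2 mice farthest from the median. In right ovaries r was -0.19 (rho = -0.16, permutation adjusted p = 0.676), and on left minus right differences -0.57 (rho = -0.54, permutation adjusted p = 0.0508). On these differences Fshr went with Cyp19a1 at r = 0.65 (rho = 0.66, permutation adjusted p = 0.0190) and with Inha at r = 0.68 (rho = 0.62, permutation adjusted p = 0.0146). Without DSS_11.1 and control_15.4, the 2 farthest on this measure, r was -0.77 for Ovgp1, 0.58 for Cyp19a1 and 0.64 for Inha. Fshr with Inha had r = 0.78 in left and 0.56 in right ovaries (permutation adjusted p = 0.00296 and 0.0718), and with Cyp19a1 0.56 and 0.52 (permutation adjusted p = 0.0527 and 0.106).

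The 3 low ovaries differed from each other in some other genes. In the left ovary of DSS_11.2 Fshr was 8.53, and Inha at 5022, Foxl2, a granulosa transcription factor, at 64.0, Star at 1247, Cyp11a1 at 1914 and Gdf9, an oocyte growth factor, at 116 were the lowest of 30 ovaries. Its Amh, at 1163 against a median of 1426, ranked 8 from the lowest. Its Ovgp1, at 66716, and its summed adipocyte markers, at 9935, were the highest. The right ovary of that mouse had 2006 Lhcgr, 2547 Prlr, 213 Foxl2, 6567 Star and 973 Ovgp1, none of them the lowest or highest. Its Fshr, at 12.5, was the lowest of the right ovaries. Its Cyp19a1, at 21.4, Cyp17a1, at 365, and Inha, at 8838, ranked 3, 4 and 5 from the lowest of 30.

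In control_15.3 both ovaries were low in Lhcgr and Prlr. Fshr was 19.9 and 14.9 there against a median of 23.6, and the mean of both, 17.4, was the lowest of the control mice. Foxl2, at 146 and 141, and Inha, at 12580 and 12547, lay near the medians of 150 and 12097. Amh was 2603 and 1722 against a median of 1426, the former the highest of 30 ovaries. Ovgp1 was 216 and 133.2. Cyp17a1 levels, at 33.1 and 44.7, were the 2 lowest of all ovaries, against a median of 1205. Star, at 2940 and 2792 against a median of 4967, and Cyp11a1, at 6225 and 5427 against 10074, were also low, as in the left ovary of DSS_11.2. The luteal genes Hsd17b7, at 139 and 194 against a median of 1433, Ptgfr, the receptor that starts luteal regression, at 288 and 224 against 824, and Sfrp4, at 286 and 281 against 967, were lower only in the left ovary of DSS_11.2. Other genes of the list were not low in control_15.3: Parm1 was 123 and 153 against a median of 102, the latter the highest of 30 ovaries, and Akr1c18 119 and 56.1 against 99.1. The 6 luteal markers together were 568.25 in that ovary and 1065 and 1027 in control_15.3, and ran from 1813 to 5688 in the others, with medians of 3702, 3699, 3218 and 3752 in DSS left, DSS right, control left and control right ovaries. None of the 6 was at 0 in an ovary. Their part in the levels of Lhcgr and Prlr was not tested.

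**Figure D5:**
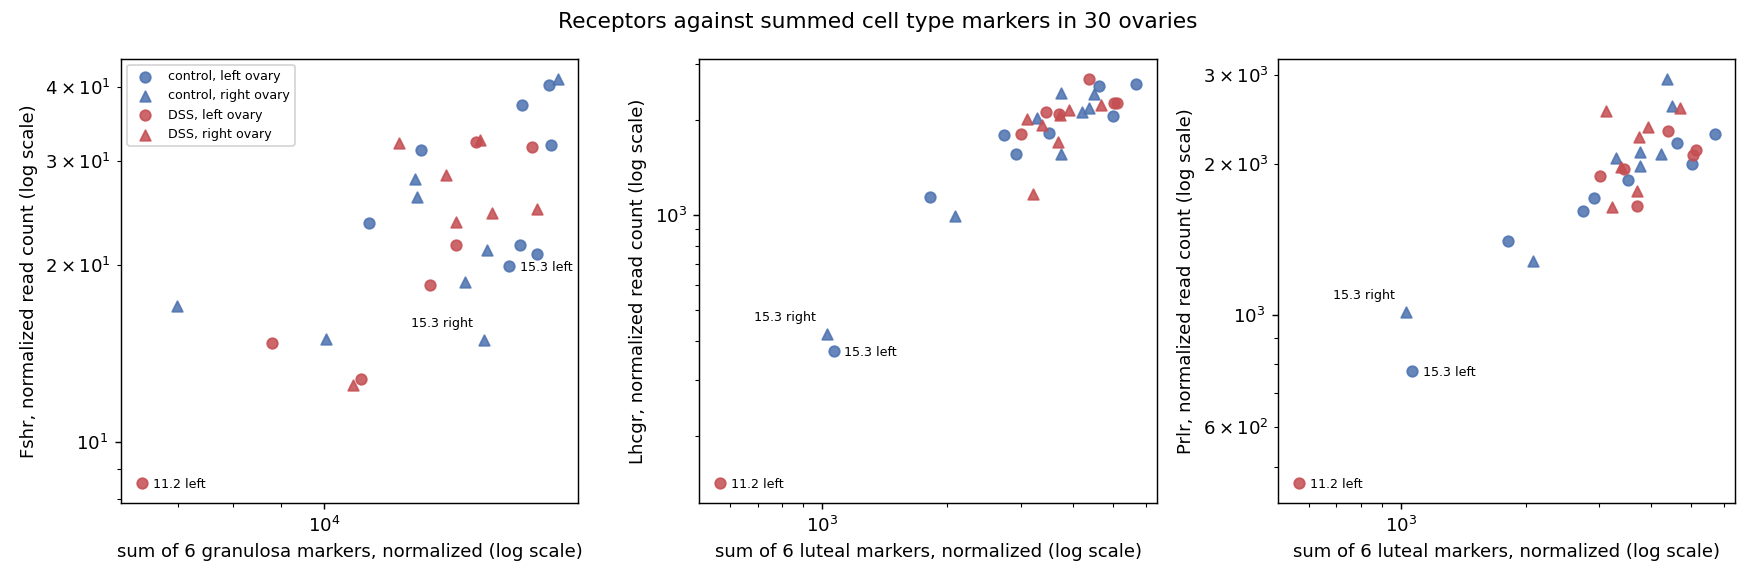
Fshr against the sum of 6 granulosa markers, and Lhcgr and Prlr against the sum of 6 luteal markers, in 30 ovaries as normalized read counts on log scales. Lhcgr and Prlr are lowest in the 3 ovaries with luteal sums of 568.25, 1065 and 1027, while both ovaries of control_15.3 have granulosa sums of 15674 and 14754, above the median of 13940.

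The genes most like each receptor over the 15 mice were named by Pearson's r of log2 levels, as a description with no test. For Lhcgr they were Hsd17b7 (r = 0.97), Gm2a (0.97), Runx2 (0.96), Sgk1 (0.96) and Plin4 (0.96), and Prlr ranked 7. For Prlr they were Sgk1 (0.97), Lhcgr (0.95), Idh1 (0.95), Nsdhl (0.95) and Ssu2 (0.93). Without DSS_11.2 and control_15.3 these r values ran from 0.22, for Hsd17b7 with Lhcgr, to 0.80, for Idh1 with Prlr. Sgk1 is a kinase, Idh1 an NADPH-making dehydrogenase and Nsdhl an enzyme of cholesterol synthesis.

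For Fshr the genes most like it were Ppp6c (0.89), Polq (0.89), Gm9961 (0.88), Cyb5a (0.87) and Slc7a5 (0.86). Lhcgr ranked 2031 and Prlr 2993 in likeness to Fshr. Without DSS_11.2 and control_15.3, r was between 0.71 and 0.87 for the 5 genes, -0.57 for Lhcgr and -0.45 for Prlr.

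Of 78 further genes of these hormone pathways, in 10 lists, 66 were abundant enough to test. For DSS against control 0 of 66 passed in limma, with 2 at an unadjusted p under 0.05, beside 1169 of all 14646 genes. The 66 had 33 higher and 33 lower log2 differences, with a median of 0.00, as over all 14646 genes. With edgeR and DESeq2 the genes named here did not pass either. For left against right, 1 was called higher in the left and 5 higher in the right ovary, or 9.09% of the 66 beside 10.2% of all genes.

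Of the pituitary ligands, which are made outside the ovary, Fshb was at 0 in all 30 libraries, and Cga, the shared alpha chain, had 16 reads in all and was below the level tested. Lhb had 231 reads, at 9.57 ± 5.24 (SD, n = 7) in DSS and 6.18 ± 4.49 (SD, n = 8) in control mice, a log2 difference of 0.65 (limma adjusted p = 0.718), which was 0.27 without the left ovary of DSS_11.2. Prl had 194 reads, at 4.57 ± 6.95 (SD, n = 7) and 7.64 ± 5.06 (SD, n = 8), a log2 difference of -1.15 (limma adjusted p = 0.648). At these depths both ligands stood at 0 in some libraries, 3 for Lhb and 4 for Prl.

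Among the receptor relatives 0 of 5 glycoprotein hormone receptor relatives and 0 of 3 cytokine receptor relatives passed for either contrast. Tshr, the thyrotropin receptor, was 18.8 ± 23.7 (SD, n = 7) in DSS and 8.58 ± 12.4 (SD, n = 8) in control mice (log2 difference 0.98, limma adjusted p = 0.701). Rxfp1, the relaxin receptor, was 46.4 ± 62.1 and 22.9 ± 21.7 (log2 difference 0.76, limma adjusted p = 0.842). The direction of Rxfp1 turned without the left ovary of DSS_11.2, to -0.076, and Tshr was 0.35 without it. Ghr, the growth hormone receptor, was 183 ± 38.9 and 159 ± 24.1 (log2 difference 0.19, limma adjusted p = 0.720, and 0.084 without that ovary), and Il6st, the shared chain of interleukin 6 type receptors, 384 ± 56.2 and 372 ± 34.7 (log2 difference 0.04, limma adjusted p = 0.922, and -0.046 without it).

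All 16 cyclic AMP and protein kinase A genes were tested, and 0 passed for DSS. Adcy9, an adenylyl cyclase, and Prkaca, a catalytic subunit of protein kinase A, had the smallest p. Adcy9 was 63.9 ± 8.92 (SD, n = 7) in DSS and 75.1 ± 11.24 (SD, n = 8) in control mice (log2 difference -0.23, limma adjusted p = 0.615), and Prkaca 213 ± 12.7 and 230 ± 12.9 (log2 difference -0.11, limma adjusted p = 0.617). Between sides 4 of the 16 passed, or 25% beside 10.2% of all genes tested, and the list was not tested as a set. Prkar1a, a regulatory subunit, was 1095 ± 69.4 in left and 1409 ± 106 in right ovaries (SD, n = 15; log2 difference -0.36, limma adjusted p = 7.19e-06).
The catalytic subunit Prkacb was 249.7 ± 34.9 and 304.05 ± 25.3 (log2 difference -0.29, limma adjusted p = 0.000921), and the phosphodiesterase Pde8a 22.1 ± 6.17 and 33.4 ± 9.03 (log2 difference -0.57, limma adjusted p = 0.0126). Creb1, the transcription factor that protein kinase A activates, was higher on the left, at 213 ± 24.6 and 189.6 ± 19.7 (log2 difference 0.16, limma adjusted p = 0.0365), but missed the threshold in 10 of the 15 fits that left out 1 mouse. Of the 7 genes of receptor desensitization and receptor mRNA control 0 passed for either contrast. Appl1 and Arrb2, an adaptor of Fshr and a beta-arrestin, were 267 ± 17.8 and 38.3 ± 5.48 in DSS and 257 ± 14.2 and 36.4 ± 5.14 in control mice (log2 differences 0.06 and 0.07, limma adjusted p = 0.814 and 0.892).

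Of 8 genes of granulosa cells that respond to FSH, 0 passed for DSS. Hsd17b1, which makes estradiol, was 55.9 ± 10.8 (SD, n = 7) in DSS and 65.3 ± 6.97 (SD, n = 8) in control mice (log2 difference -0.23, limma adjusted p = 0.629), and Inha 11062 ± 1933 and 12133 ± 882 (log2 difference -0.15, limma adjusted p = 0.722, and -0.045 without mouse DSS_11.2). Nr5a2, a nuclear receptor of granulosa and luteal cells, was higher in the right ovary, at 1369 ± 262.5 against 1021 ± 230 on the left (SD, n = 15; log2 difference -0.46, limma adjusted p = 0.0287), and missed the threshold without mouse DSS_10.3.

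Of 11 genes that the LH surge induces around ovulation, 5 were abundant enough to test and 0 passed. Cebpb, a transcription factor downstream of LH, was 155 ± 24.6 (SD, n = 7) in DSS and 182 ± 30.2 (SD, n = 8) in control mice (log2 difference -0.23, limma adjusted p = 0.632), and Pgr, the progesterone receptor, 134 ± 136 and 69.7 ± 68.5 (log2 difference 0.93, limma adjusted p = 0.670, and 0.46 without the left ovary of DSS_11.2). Areg, Ereg, Btc, Ptgs2, Tnfaip6 and Has2, which rise briefly after the surge, all lay below a mean of 5. Of 5 LH-driven steroid genes tested 0 passed for DSS, and Cyp17a1 was higher in the right ovary, at 1535 ± 1060 against 1039 ± 491 on the left (SD, n = 15; log2 difference -0.52, limma adjusted p = 0.0188).
For DSS against control Cyp11a1 was 9057 ± 1722 and 10101 ± 2076 (log2 difference -0.15, limma adjusted p = 0.822, and -0.0365 without mouse DSS_11.2) and Cyp17a1 1426 ± 916 and 1165 ± 543 (log2 difference 0.45, limma adjusted p = 0.892), the latter at -0.18 without control_15.3.

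Of 9 genes of prolactin receptor signalling and 6 luteal genes that respond to prolactin, 0 passed for either contrast. Ptpn11, a phosphatase of the receptor complex, was 303.9 ± 25.5 (SD, n = 7) in DSS and 282 ± 15.5 (SD, n = 8) in control mice (log2 difference 0.11, limma adjusted p = 0.662), and Stat3 162 ± 14.0 and 149 ± 18.1 (log2 difference 0.13, limma adjusted p = 0.696). Onecut2 and Akr1c18 were 162 ± 50.9 and 147 ± 68.6 in DSS and 129 ± 79.1 and 129 ± 113 in control mice (log2 differences 0.46 and 0.51, limma adjusted p = 0.718 and 0.811), and without control_11.4 that of Akr1c18 was 0.24. The median log2 difference of the 6 luteal genes was 0.25, beside 0.00 over all genes. Of the 6, Hsd17b7, Ptgfr and Sfrp4 were low in control_15.3 and lower still in the left ovary of DSS_11.2, so in a mouse of each group. Their log2 differences were 0.26, 0.25 and 0.06, and the part of these mice in the median was not tested.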

How the data were processed

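CEL-Seq libraries of 30 ovaries were used. The submitters' processing notes name TopHat, HTSeq, DESeq2 and the build GRCm38.p5. Versions, the strand setting and the handling of molecular identifiers are not given in the sources used here. The authors deposited a signal per gene: counts scaled by a library size factor, per the file headers and the values. In every library 99.82% to 100.0% of genes were whole multiples of a single step (within 0.0051), so reads were recovered by division, and totals ran from 3095386 to 8564770 reads per library.

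From these values, limma 3.58.1 in R 4.3.3, with a trend and two-sided, tested log2(value + 1) of the 14646 genes whose mean over mice reached 5, and p was adjusted by Benjamini-Hochberg and called under 0.05. This scale understates changes of low genes. DSS and control were compared on the mean of both ovaries of each mouse, left and right with the mouse as a block, and the DSS effect on the side difference on each mouse's left minus right value. Exact permutation tests for each receptor used all splits of the mice or all sign flips, and the 18 relations used 100000 permutations each (SciPy 1.17.1). The ovaries of a mouse are paired by the labels. Deviations from the group means correlated at a median of 0.18 between the ovaries of a mouse (from -0.27 to 0.37, above 0.1 in 10 of 15). Between other mice on opposite sides the median was -0.01 (from -0.62 to 0.69), so the ranges overlapped.

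edgeR 4.0.16 and DESeq2 1.42.0 on the recovered reads, TMM scaling, other pseudocounts and filters, ovaries of 1 side or at or under 5000 of Ovgp1, and leaving out each mouse were alternatives. On simulated data, the DSS comparison recovered 60% of genes changed 1.5-fold and 92% of those changed 2-fold over 14569 genes. The test of the side difference recovered 38% of those changed 2-fold over 14579 genes. The simulation gave every gene the same spread between mice. Fshr, Lhcgr and Prlr spread more than most genes, with SDs over mice of 0.43, 0.64 and 0.35, so these shares do not apply to them. The rule for the receptors uses no measured value, but the receptors were proposed, and the gene lists chosen, with earlier results of these data known. Besides the receptors, the genes with the smallest p of each pathway list (up to 3 by the rule, 2 printed) and those that passed are named, and the 5 genes most like each receptor. Stratified epithelium markers, 5 genes, summed to between 36.7 and 6268 and adipocyte markers, 5 genes, to between 67.6 and 9935. The 5 theca and interstitial markers summed to between 1461 and 5858, and the 7 oocyte markers to between 509 and 1830. Promoter sequences come from RefSeq on GRCm38.p6. Protein sequences were not used here.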

Additional observations from a re-analysis of the deposited data

Results flagged for a closer look

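An ovary or a mouse stood apart from the others of its group in 5 of the 18 sets of receptor values examined, where chance sets a value apart in about 1 of 20 sets. In the left ovaries of DSS mice Lhcgr was 142 and Prlr 465 in mouse DSS_11.2, each separated from the next ovary by more than 0.568 of the range of the group. The mean of both ovaries of that mouse, 1074 for Lhcgr, also stood apart among the DSS mice. Among the control mice, control_15.3 stood apart with means of 396 for Lhcgr and 896 for Prlr, separated by more than 0.526 of the range. The 2 receptors share these mice, so the 5 are not independent. No Fshr value stood apart in this way.

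The left minus right difference of Fshr was lower in DSS than in control mice by a test of the difference itself, at -0.74 on the log2 scale (exact permutation p = 0.0123, limma adjusted p = 0.637, so it failed the correction over all genes), with the left ovary higher in 2 of 7 DSS mice and 7 of 8 controls. It was -0.26 without the ovaries over 5000 of Ovgp1, and the part of oviduct tissue in it was not tested.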

How the results depend on the processing

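Refits of the 3 comparisons under other settings gave 216 values of a receptor. In 0 of them did a receptor pass the threshold, in 195 the direction was kept, and in 21 it turned. Fshr had no adjusted p for left minus right with DESeq2. For DSS against control, Fshr was 0.18 in right ovaries only, and Lhcgr and Prlr were -0.040 and -0.031 in left ovaries only. Leaving out each mouse gave a range from -0.28 to -0.022 for Fshr, from -0.056 to 0.36 for Lhcgr and from -0.030 to 0.19 for Prlr, the last 2 turned by control_15.3.

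For left minus right, Fshr was 0.0091 with edgeR and 0.0090 with DESeq2, 0.056 without ovaries over 5000 of Ovgp1 and 0.34 in control mice only, and Lhcgr was 0.0034 without those ovaries. Leaving out each mouse gave -0.080 to 0.081 for Fshr, -0.28 to 0.090 for Lhcgr and -0.38 to -0.14 for Prlr. For the DSS effect on left minus right, Lhcgr and Prlr were 0.044 and 0.015 without ovaries over 5000 of Ovgp1, and leaving out each mouse gave -0.54 to 0.30 and -0.34 to 0.16. The cause was not tested.

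The count of genes called for DSS against control, 0, was 6 with edgeR, 52 with DESeq2, 10 without ovaries over 5000 of Ovgp1, 11 in left ovaries only, 1 in right ovaries only and 3 with a replicate block for the number before the point in the mouse number, whose meaning the labels do not give. Leaving out each mouse gave 0 to 13, with 13 without DSS_15.1. For left against right, 1488 became 738 without ovaries over 5000 of Ovgp1, 114 in DSS mice only and 404 in control mice only, with fewer samples in each. Without the replicate block of the mouse, 1163 genes were called and the Prlr difference had an adjusted p of 0.353, so the pairing changed no call on a receptor, while Creb1 and Cyp17a1 lost theirs (adjusted p = 0.0854 and 0.623). For the DSS effect on left minus right, 0 became 1 without those ovaries.

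Relations that turned, as r, were Fshr with Lhcgr on left minus right differences (-0.13), and Fshr with Prlr in right ovaries (-0.14), without ovaries over 5000 of Ovgp1 (-0.064), without the left ovary of DSS_11.2 (-0.031) and on left minus right differences (-0.18). Prlr with Akr1c18 was -0.054 in right ovaries. Ovgp1 with Lhcgr and Prlr was -0.38 and -0.34 in left ovaries and -0.29 and -0.32 on left minus right differences. Among the other genes, for DSS against control, right ovaries only gave -0.40 for Lhb, -0.079 for Il6st, -0.018 for Arrb2, 0.15 for Inha and 0.13 for Hsd17b1. Without ovaries over 5000 of Ovgp1 Rxfp1 was -0.55, Il6st -0.015 and Appl1 -0.029, and without the left ovary of DSS_11.2 Rxfp1 was -0.076 and Il6st -0.046. Leaving out each mouse gave -0.020 to 0.075 for Il6st and -0.18 to 0.83 for Cyp17a1. The alternatives without the left ovary of DSS_11.2, the left minus right relations, the relations within a side without chosen mice and the spread without DSS_11.2 and control_15.3 were chosen after seeing the data. Fshr, at a median of 23 reads, is the receptor whose precision depth limits most.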
